A study of Homo sapiens with 9 samples.

Results

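Nuclear genes that encode subunits of the oxidative phosphorylation complexes were examined in MDA-MB-231 cells with and without knockdown of ASAH1. The genes were taken by name: NDUFA, NDUFB, NDUFC, NDUFS and NDUFV genes with a number, SDHA to SDHD, the UQCR genes, CYC1, the COX genes numbered 4 to 8, and the ATP5 genes. This choice used symbols and no measured value, and it took 88 of the 26485 genes listed. Of these, 84 were assigned to a complex, with 36 in complex I, 4 in complex II, 10 in complex III, 18 in complex IV and 16 in complex V, and the other 4 (ATP5S, ATP5SL, ATP5EP2 and UQCRBP1) encode no subunit.

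Oxidative phosphorylation takes place in the inner mitochondrial membrane. Complex I (NADH dehydrogenase) and complex II (succinate dehydrogenase) pass electrons to coenzyme Q, complex III passes them to cytochrome c, and complex IV passes them to oxygen. Complexes I, III and IV pump protons, and complex V (ATP synthase) uses the resulting gradient to make ATP. All of these complexes except complex II also hold subunits encoded in mitochondrial DNA, so their nuclear and mitochondrial subunits must be built together, and the nuclear subunits are imported from the cytosol.

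MDA-MB-231 is a human triple-negative breast cancer cell line. The cells stably expressed a nonspecific (NS) shRNA as a control or 1 of 2 shRNAs against ASAH1, which encodes the lysosomal enzyme acid ceramidase, and every group therefore carried an shRNA. Each group (NS shRNA, ASAH1 shRNA #1 and ASAH1 shRNA #2) had 3 libraries of RNA, described as biological replicates. The measurement asked what changes in the transcriptome when ASAH1 is lowered.

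The libraries held 30989598 to 34867548 reads on genes with NS shRNA, 23806003 to 39791698 with shRNA #1 and 35653318 to 49659106 with shRNA #2. ASAH1 had 4436, 4512 and 4518 normalized counts (reads divided by a size factor of the library) with NS shRNA and 1268, 1365 and 1348 with shRNA #1. In the separately scaled table of shRNA #2 it had 4787, 4898 and 4871 with NS shRNA and 780, 807 and 762 with shRNA #2, so both targeting groups lay below every control. The line markers VIM (41873 to 72608 reads) and CD44 (20719 to 34076 reads) were present in all libraries, while ESR1 and PGR had at most 2 reads and ERBB2 had 1530 to 3581. Among markers of other cells, PTPRC, CD3E, CDH5 and ADIPOQ had 0 to 8 reads and PLIN1 had 5 to 24, but CD14, PECAM1, MYH7 and CKM were present. CD14 had 942 to 1018 reads with NS shRNA, 155 to 293 with shRNA #1 and 1054 to 1470 with shRNA #2, and PECAM1 had 39 to 102 in any library. CKM, of muscle, had 1040, 979 and 585 normalized counts with NS shRNA and 484, 394 and 651 with shRNA #1, and 1123, 1063 and 631 against 882, 1088 and 1418 with shRNA #2, and MYH7 moved alike (272 to 1328 reads). Replicate 3 was thus the lowest control and the highest hairpin library for both genes, as it was for the summed subunit genes. The part of these genes in the results was not tested, and the muscle forms of complex IV subunits, COX6A2 and COX7A1, had at most 1 read in any library.

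More of the oxidative phosphorylation genes fell than rose with either hairpin, and the changes were small. With a mean of at least 10 normalized counts as a filter on low values, 79 of the 88 genes were tested (77 of the 84 subunit genes). The 9 below the filter were COX4I2, COX6A2, COX6B2, COX7A1, COX7B2, COX8C, ATP5L2, ATP5EP2 and UQCRBP1. A gene was called at an adjusted p below 0.05 by limma on log2(normalized count + 1), adjusted over all genes tested, and log2 fold changes against NS shRNA are on that scale. In RNA from whole cultures, fewer cells with a transcript and less of it per cell cannot be told apart.

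With shRNA #1, 40 of the 79 genes were called, against 66.1% of the 14341 genes tested. Of the 79, 35 (44.3%) fell and 5 (6.33%) rose, against 33.3% and 32.8% of all genes. With shRNA #2, 46 were called, against 66.9% of the 14250 genes tested, and 36 (45.6%) fell and 10 (12.7%) rose, against 33.4% and 33.5% of all genes. Over the 79 genes the median was -0.21 on the log2 scale for shRNA #1 and -0.18 for shRNA #2, where all genes had medians of 0.0013 and 0.013. None of the 79 changed over 2-fold with shRNA #1 (0 of 79, where 12.4% of all genes did), and 2 did with shRNA #2 (NDUFB5 and ATP5J2, where 14.1% of all genes did). The count of 10 that rose with shRNA #2 went to 6 without NS shRNA replicate 3, without shRNA #2 replicate 1 or without shRNA #2 replicate 3. Of all genes, 4780 rose with shRNA #2 in the main fit, and 4270 to 4714 with any 1 library left out.

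The same NS shRNA libraries served both comparisons, so calls shared by the hairpins are not independent of each other. In both comparisons 26 of the 79 genes fell (20.5% of all genes did), 4 rose (20.0% of all genes did) and 0 were called in opposite directions (7.96% of all genes were). The 4 that rose were NDUFA6 and NDUFV3 of complex I, UQCRH of complex III and COX7C of complex IV. The 26 that fell included 13 of the 36 tested genes of complex I (36.1%), 2 of 4 of complex II (50%) and 2 of 10 of complex III (20%). The rest were 4 of 12 of complex IV and 5 of 15 of complex V (33.3% each). The share in complex III was close to the 20.5% of all genes. Leaving out 1 library at a time gave 22 to 33 genes that fell with both hairpins and 3 to 5 that rose. Calls shared by both hairpins were counted over all genes only in the main fits. Whether these counts moved with those of all genes is therefore not known.

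**Figure D1:**
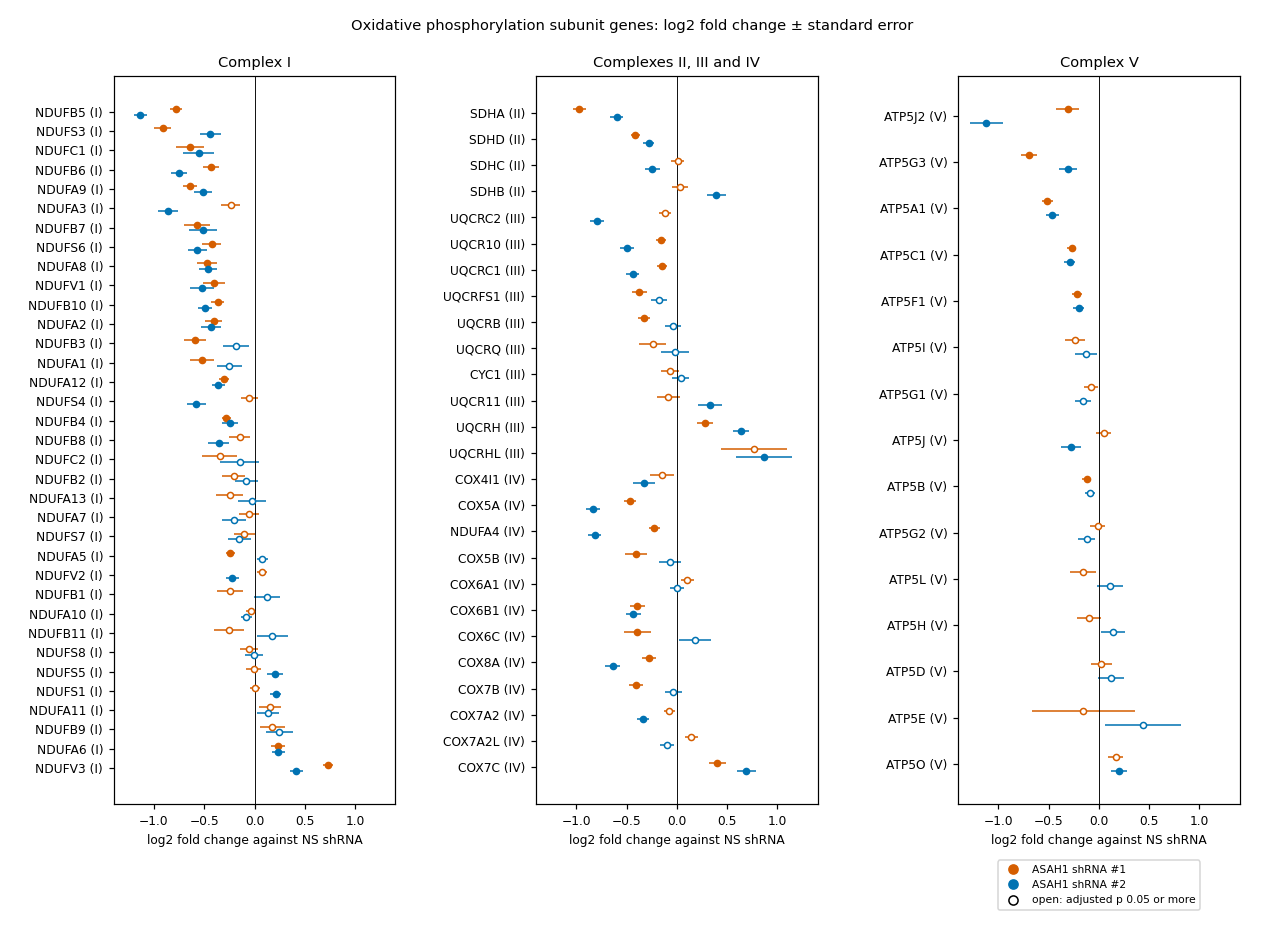
Log2 fold change against NS shRNA (x axis, with its standard error) of the tested subunit genes, by complex, for ASAH1 shRNA #1 (orange) and shRNA #2 (blue); filled points passed an adjusted p of 0.05. Most points lie left of 0, NDUFB5 and ATP5J2 reach below -1 with shRNA #2, and NDUFV3, UQCRH and COX7C lie right of 0 with both hairpins.

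The libraries of 1 group also differed among themselves. Summed over the 84 subunit genes and set to 100% at the NS shRNA mean, the level was 106%, 103% and 90.6% in the NS shRNA libraries and 80.3%, 83.4% and 91.1% with shRNA #1. In the table of shRNA #2 it was 106%, 103% and 90.4% with NS shRNA and 85.9%, 82.6% and 95.4% with shRNA #2. NS shRNA replicate 3 was the lowest control and the replicate 3 libraries of both hairpins were the highest of their groups, so the summed levels overlapped between the groups in both tables. Complex II was the one complex of the 5 whose summed level did not overlap in either table, at 94.3% to 103% with NS shRNA against 67.2% to 72.3% with shRNA #1 in their table, and at 94.1% to 103% against 79.0% to 85.6% with shRNA #2. These are sums of counts, so SDHA weighs most in complex II. Its mean with NS shRNA was 8678 in the table of shRNA #1, where SDHD had 4314, SDHB 2771 and SDHC 1229. SDHA and SDHD fell with both hairpins, SDHB and SDHC were not called with shRNA #1, and with shRNA #2 SDHB rose and SDHC fell. Complex V did not overlap with shRNA #1 (a lowest NS shRNA value of 92.6% against values from 80.1% up to 88%) but did with shRNA #2.

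A similar spread within the groups was seen in other genes with short transcripts. Over the 1048 other genes whose canonical transcript is under 1000 bases, the median log2 ratio to the NS shRNA mean was 0.09, 0.04 and -0.12 in the 3 NS shRNA libraries, and over the 79 oxidative phosphorylation genes it was 0.10, 0.04 and -0.14. Against NS shRNA the short genes had a median log2 fold change of 0.05 with shRNA #1, with 22.9% called lower, where the oxidative phosphorylation genes had -0.21. With shRNA #2 the 1032 short genes had -0.02, with 31.1% called lower, where the oxidative phosphorylation genes had -0.18. What moved both sets between the replicates was not tested. With all 3 replicate 3 libraries left out, an alternative chosen after this spread was seen, 56 of the genes fell with shRNA #1, 51 with shRNA #2 and 43 with both, and 4 rose with both. Those libraries are the ones in which the groups come closest, so leaving them out widens the difference by construction. Without those libraries, calls shared by both hairpins were not counted over all genes. In the main fits 4779 of all genes fell with shRNA #1 and 4758 with shRNA #2. Over the alternatives other than leaving out 1 library, this one included, 4117 to 5036 and 4225 to 5152 of all genes fell.

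**Figure D2:**
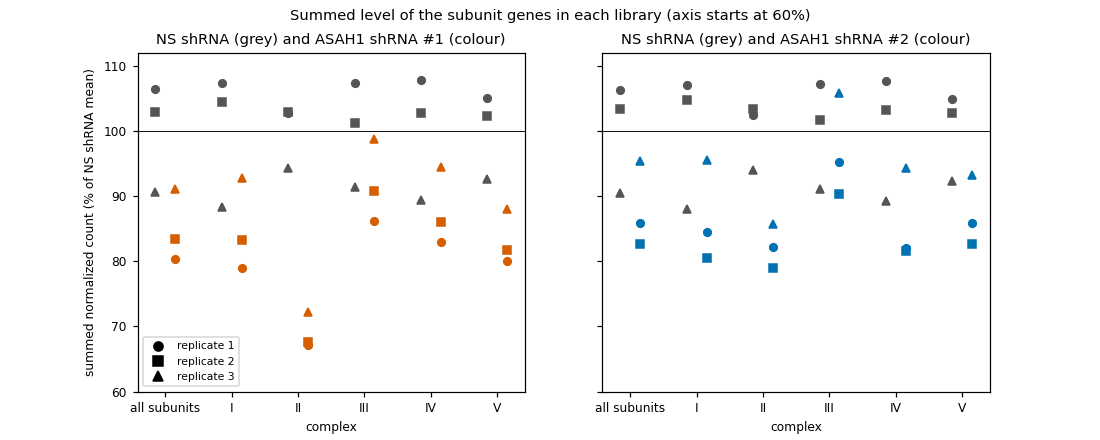
Summed normalized count of the subunit genes and of each complex in every library, as a percentage of the NS shRNA mean of the same table (y axis starting at 60%), with NS shRNA in grey, shRNA #1 in orange and shRNA #2 in blue. The replicate 3 libraries (triangles) bring the groups together at 90.6% and 91.1% for shRNA #1, while complex II stays apart in both tables. Genes with many counts weigh most in each sum, as SDHA does in complex II.

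**Figure D3:**
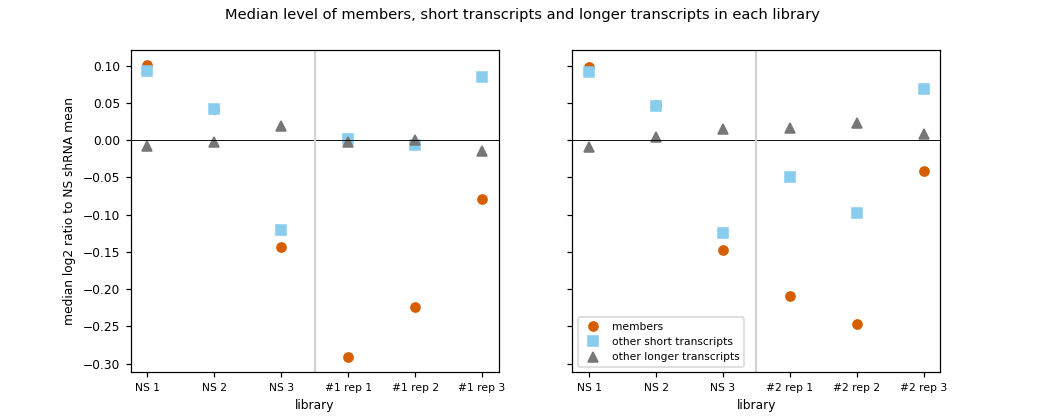
Median log2 ratio to the NS shRNA mean in each library (x axis) for the 79 oxidative phosphorylation genes, other genes with a canonical transcript under 1000 bases, and genes with longer ones. The first 2 sets move alike in the NS shRNA libraries and lie apart in the hairpin libraries.

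The promoters of 4 genes that changed with both hairpins are shown as examples. SDHA and COX5A are from the genes that fell and NDUFV3 and COX7C from those that rose. Each is the 250 bases before the start that RefSeq gives on GRCh38.p14, which for NDUFV3 lies inside the longer span of the gene in GENCODE, printed on the strand of the gene. They lie at chr5:218070-218319 (+ strand), chr15:74938074-74938323 (- strand), chr21:42893059-42893308 (+ strand) and chr5:86617691-86617940 (+ strand). Capitals mark exact matches on either strand to the searched letters, which in SDHA are the motif of nuclear respiratory factor 1 and in the other 3 the GC box (GGGCGG).
SDHA: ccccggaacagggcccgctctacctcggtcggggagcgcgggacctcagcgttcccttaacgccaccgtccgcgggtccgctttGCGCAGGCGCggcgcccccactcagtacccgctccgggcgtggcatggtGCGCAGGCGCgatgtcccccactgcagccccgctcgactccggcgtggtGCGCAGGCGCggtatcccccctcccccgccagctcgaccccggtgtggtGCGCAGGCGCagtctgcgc
COX5A: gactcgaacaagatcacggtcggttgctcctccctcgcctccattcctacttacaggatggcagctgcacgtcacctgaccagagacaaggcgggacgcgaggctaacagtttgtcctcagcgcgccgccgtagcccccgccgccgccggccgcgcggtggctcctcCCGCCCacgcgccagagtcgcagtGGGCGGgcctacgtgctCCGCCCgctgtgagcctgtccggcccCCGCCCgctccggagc
NDUFV3: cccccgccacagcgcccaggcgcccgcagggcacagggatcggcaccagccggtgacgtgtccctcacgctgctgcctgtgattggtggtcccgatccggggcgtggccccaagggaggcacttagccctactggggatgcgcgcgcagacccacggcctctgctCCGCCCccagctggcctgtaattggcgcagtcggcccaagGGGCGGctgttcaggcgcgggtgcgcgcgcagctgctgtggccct
COX7C: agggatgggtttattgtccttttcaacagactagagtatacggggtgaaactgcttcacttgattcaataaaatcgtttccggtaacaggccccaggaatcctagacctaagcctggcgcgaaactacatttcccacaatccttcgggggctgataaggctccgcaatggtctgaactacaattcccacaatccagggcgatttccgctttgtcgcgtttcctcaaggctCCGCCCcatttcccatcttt

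Of the 84 subunit genes, 66 had a promoter window. The nuclear respiratory factor 1 motif was present in 14 of them (21.2%), against 7.65% of the 15842 protein-coding promoters of the same length. The letters bound by ETS factors such as GABPA (CCGGAAG) were in 24.2% against 11.8%, those of the estrogen-related receptor (AAGGTCA) in 7.58% against 2.79% and the YY1 motif in 1.52% against 0.410%. The GC box was in 54.5% against 56.0%. Among the genes that fell with both hairpins, 7 of the 22 with a window held the nuclear respiratory factor 1 motif, and among the 4 that rose 0 did. The GC box was in 13 of the 22 and 3 of the 4, the ETS letters in 5 and 1, the estrogen-related receptor letters in 1 and 0, and the YY1 motif in 0 of both, and no difference between these small groups was tested. Matches were counted on both strands and may overlap one another, and they describe letters only. The 4 matches of SDHA start 166, 117, 68 and 19 bases before the annotated start.

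Complex I takes electrons from NADH, with 7 nuclear core subunits, among them those that carry the flavin and iron-sulphur centres, and many accessory subunits around them. With shRNA #1, 16 of its 36 genes (44.4%) fell and 2 (5.56%) rose, against 33.3% and 32.8% of all genes, and with shRNA #2, 18 (50%) fell and 4 (11.1%) rose, against 33.4% and 33.5%. NDUFB5, an accessory subunit of the membrane arm (chromosome 3, 179604690 to 179627647 on hg38), had the lowest log2 fold change of the 79 genes with shRNA #2. It had 3039, 3134 and 2894 normalized counts with NS shRNA and 1642, 1771 and 1868 with shRNA #1. In the table of shRNA #2 it had 3279, 3402 and 3120 with NS shRNA and 1427, 1452 and 1575 with shRNA #2. All hairpin libraries lay far below all controls, replicate 3 included. NDUFB5 fell by 0.78 ± 0.06 (SE, n = 3 per group) and by 1.14 ± 0.06 on the log2 scale (adjusted p = 3.77e-06 and 1.81e-07, limma). NDUFB6, of the same arm, fell by 0.43 and 0.75 on the log2 scale.

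Among the core subunits, NDUFS3, an iron-sulphur protein subunit, had 2619, 2722 and 2148 normalized counts with NS shRNA and 1284, 1279 and 1392 with shRNA #1. In the other table it had 2826, 2955 and 2316 with NS shRNA and 1945, 1780 and 2233 with shRNA #2. The groups did not overlap in either table, but the highest shRNA #2 library came close to the lowest control. NDUFS3 fell by 0.91 ± 0.09 with shRNA #1 (adjusted p = 1.37e-05, limma) and by 0.44 ± 0.10 with shRNA #2 (adjusted p = 0.00336, limma). NDUFV1, the subunit that binds NADH and flavin, fell by 0.41 and 0.52. NDUFV2, an iron-sulphur subunit, fell by 0.22 with shRNA #2 and had 0.07 with shRNA #1. The NDUFV2 call was lost without shRNA #2 replicate 1 (adjusted p = 0.0518, limma). NDUFS1, the largest iron-sulphur subunit, rose with shRNA #2 (log2 fold change 0.21 ± 0.05) and had 0.00 ± 0.05 with shRNA #1. NDUFS7 and NDUFS8 passed in neither comparison, at -0.10 and -0.06 with shRNA #1 and at -0.15 and -0.00 with shRNA #2.

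Of the 29 accessory subunits of complex I, 14 (48.3%) fell with each hairpin and 11 (37.9%) fell with both. With shRNA #1, 2 (6.90%) rose, and with shRNA #2, 3 (10.3%) rose. Of all genes, 33.3% and 33.4% fell, 32.8% and 33.5% rose, and 20.5% fell with both. The 11 NDUFB genes, all of the membrane arm, had 6 (54.5%) that fell and 0 that rose with each hairpin. Of them, 5 (45.5%) fell with both (NDUFB4, NDUFB5, NDUFB6, NDUFB7 and NDUFB10). Those that fell with both also included NDUFA9 (-0.64 and -0.51), NDUFC1 (-0.64 and -0.56) and NDUFA8 (-0.47 and -0.46). NDUFV3, an accessory subunit at the tip of the NADH-oxidizing arm (chromosome 21, 42879644 to 42913304), moved the other way. It had 1027, 1028 and 1052 normalized counts with NS shRNA and 1671, 1714 and 1777 with shRNA #1, and in the table of shRNA #2 it had 1108, 1116 and 1134 with NS shRNA and 1438, 1585 and 1454 with shRNA #2. Every hairpin library was above every control, and the controls were within a narrow range. NDUFV3 rose by 0.73 ± 0.05 and 0.41 ± 0.06 (adjusted p = 2.28e-06 and 0.000227, limma). NDUFA6, which helps form the quinone end of the peripheral arm, rose by 0.23 ± 0.07 and 0.24 ± 0.07. Its call with shRNA #1 was lost without NS shRNA replicate 2 (adjusted p = 0.0674, limma) and without shRNA #1 replicate 3 (adjusted p = 0.0557, limma).

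**Figure D4:**
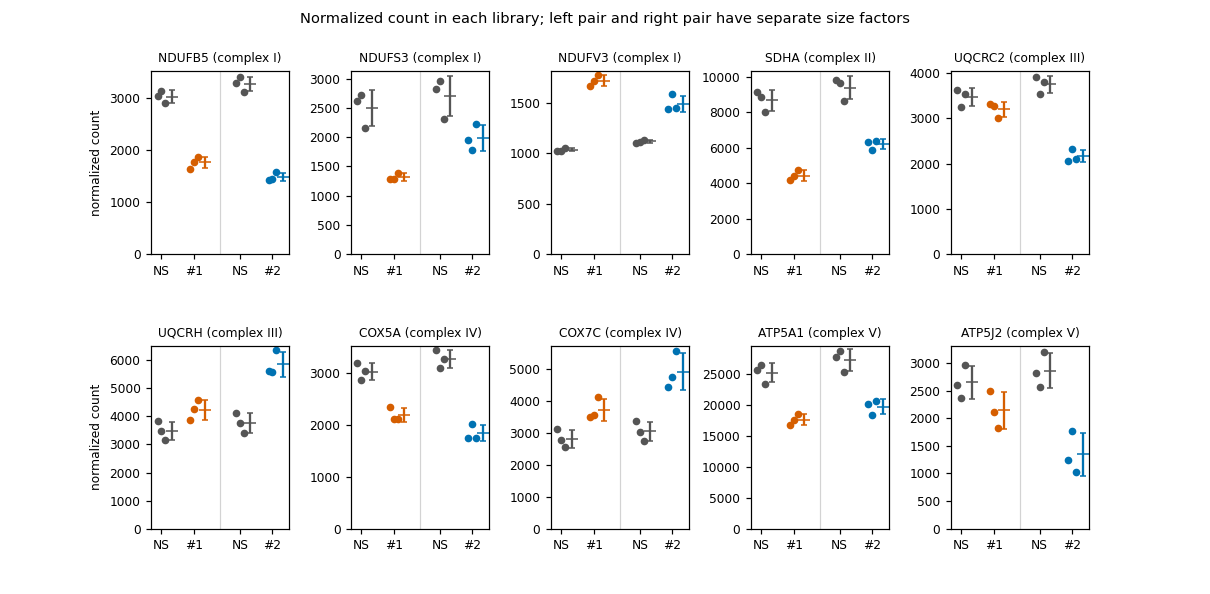
Normalized count in each library (y axis, from 0) of 10 subunit genes, with NS shRNA in grey, shRNA #1 in orange and shRNA #2 in blue; bars give mean ± SD of 3 libraries, and each table has its own size factors. NDUFB5, SDHA, COX5A and ATP5A1 lie below every control with both hairpins, NDUFV3, UQCRH and COX7C lie above, and UQCRC2 separates only with shRNA #2.

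Complex II oxidizes succinate and belongs to the citric acid cycle as well, and all 4 of its subunits are nuclear. SDHA, the flavin-carrying catalytic subunit (chromosome 5, 218303 to 257082), is the gene whose promoter is shown above with 4 matches to the nuclear respiratory factor 1 motif. It had 9123, 8888 and 8023 normalized counts with NS shRNA and 4159, 4396 and 4743 with shRNA #1. In the other table it had 9844, 9648 and 8651 with NS shRNA and 6329, 5877 and 6397 with shRNA #2. The libraries of both hairpins were all below the controls. SDHA fell by 0.97 ± 0.07 and by 0.60 ± 0.06 on the log2 scale (adjusted p = 1.53e-06 and 1.43e-05, limma), which is a change of -48.9% and -33.8%. Its listed copies SDHAP1, SDHAP2 and SDHAP3 had 48 to 252 reads in any library, and how many reads could not be placed between them and SDHA is not known here, so the count of SDHA is uncertain.

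The other subunits of complex II did not all fall with SDHA. SDHD, a membrane anchor, had 4234, 4469 and 4238 normalized counts with NS shRNA and 3205, 3202 and 3321 with shRNA #1, and 4569, 4851 and 4569 against 3687, 3936 and 3914 with shRNA #2. Its groups were apart in both tables, and it fell by 0.41 ± 0.05 and by 0.28 ± 0.06. SDHB, the iron-sulphur subunit, had 2935, 2932 and 2446 with NS shRNA and 2788, 2656 and 3016 with shRNA #1, which overlapped. In the other table it had 3167, 3183 and 2637 with NS shRNA and 3968, 3501 and 4349 with shRNA #2, all above the controls. SDHB had 0.03 ± 0.08 with shRNA #1 and rose by 0.39 ± 0.09 with shRNA #2 (adjusted p = 0.77 and 0.00349, limma). SDHC, the other anchor, had 0.01 ± 0.06 and fell by 0.24 ± 0.07 with shRNA #2, a call lost without shRNA #2 replicate 1 (adjusted p = 0.0506, limma).

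Complex III oxidizes coenzyme Q through CYC1 (cytochrome c1), the Rieske protein UQCRFS1 and a mitochondrial cytochrome b. With shRNA #1, 4 of its 10 genes fell and 1 rose, where 33.3% and 32.8% of all genes did. With shRNA #2, 3 fell and 3 rose (30.0% each), which is close to the 33.4% and 33.5% of all genes. UQCRC2, a core scaffold subunit (chromosome 16, 21953288 to 21983660), had 3619, 3255 and 3529 normalized counts with NS shRNA and 3311, 3276 and 3011 with shRNA #1. With shRNA #2 it had 2059, 2320 and 2109 against 3905, 3534 and 3805. The first pair of groups overlapped and the second did not. UQCRC2 had -0.12 ± 0.06 with shRNA #1 (adjusted p = 0.112, limma) and fell by 0.79 ± 0.07 with shRNA #2 (adjusted p = 2.53e-06, limma).

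UQCRC1, its partner, fell by 0.15 ± 0.05 and by 0.44 ± 0.06, and the small subunit UQCR10 fell by 0.15 ± 0.05 and by 0.49 ± 0.07. Both calls with shRNA #1 depended on single libraries. That of UQCRC1 was lost without NS shRNA replicate 1, NS shRNA replicate 2, shRNA #1 replicate 1 or shRNA #1 replicate 2 (adjusted p = 0.0972, 0.0864, 0.119 and 0.0987, limma). That of UQCR10 was lost without NS shRNA replicate 1, NS shRNA replicate 3, shRNA #1 replicate 2 or shRNA #1 replicate 3 (adjusted p = 0.0619, 0.0541, 0.0814 and 0.0668, limma). UQCRFS1 and UQCRB, a coenzyme Q-binding subunit, fell with shRNA #1 by 0.37 ± 0.07 and 0.33 ± 0.06 and had -0.18 and -0.04 with shRNA #2. UQCRFS1 was called with shRNA #2 without NS shRNA replicate 3 (adjusted p = 0.0148, limma) or shRNA #2 replicate 3 (adjusted p = 0.0159, limma). CYC1 had -0.07 ± 0.09 and 0.04 ± 0.09 and passed in neither comparison.

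UQCRH, the hinge protein that helps cytochrome c1 meet cytochrome c, rose. It had 3822, 3462 and 3169 normalized counts with NS shRNA and 3860, 4277 and 4574 with shRNA #1, and in the table of shRNA #2 it had 4124, 3758 and 3416 with NS shRNA and 5631, 5564 and 6356 with shRNA #2. The lowest shRNA #1 library lay just above the highest control, and with shRNA #2 the gap was wide. UQCRH rose by 0.28 ± 0.08 and 0.64 ± 0.08 (adjusted p = 0.0115 and 4.11e-05, limma). Its intronless copy UQCRHL had only 11 to 34 reads in any library, and the near-identical sequences make the split of reads between them uncertain. UQCRHL had log2 fold changes of 0.77 ± 0.32 and 0.87 ± 0.28, of which the second passed (adjusted p = 0.0183, limma). That call was lost without NS shRNA replicate 2, NS shRNA replicate 3, shRNA #2 replicate 1 or shRNA #2 replicate 3 (adjusted p = 0.0541, 0.0509, 0.0532 and 0.0564, limma) and by DESeq2 (adjusted p = 0.0548), and UQCRHL was called with shRNA #1 without shRNA #1 replicate 2 (adjusted p = 0.0446, limma) and by limma without the trend (adjusted p = 0.0466).

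Complex IV, cytochrome c oxidase, had 12 of 18 genes above the filter, of which 7 (58.3%) fell and 1 (8.33%) rose with shRNA #1 and 6 (50%) fell and 1 (8.33%) rose with shRNA #2, where the shares of all genes were 33.3% and 32.8%, and 33.4% and 33.5%. COX5A, one of the subunits that face the matrix (chromosome 15, 74919791 to 74938083), had 3190, 2861 and 3038 normalized counts with NS shRNA and 2349, 2121 and 2114 with shRNA #1. With shRNA #2 it had 1755, 2023 and 1746 against 3442, 3105 and 3275. Neither hairpin group reached any control. COX5A fell by 0.47 ± 0.06 and by 0.83 ± 0.07 (adjusted p = 0.00013 and 3.53e-06, limma).

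NDUFA4, named as a complex I gene and now placed in complex IV, had 3087, 2830 and 2763 normalized counts with NS shRNA and 2518, 2429 and 2488 with shRNA #1, and 3331, 3072 and 2979 against 1657, 1874 and 1790 with shRNA #2. The groups were apart in both tables, by little with shRNA #1. NDUFA4 fell by 0.22 ± 0.05 and by 0.82 ± 0.07 (adjusted p = 0.00553 and 2.54e-06, limma). COX8A (-0.28 and -0.64) and COX6B1 (-0.39 and -0.43), both small nuclear subunits, also fell with both. COX5B, which binds zinc, fell with shRNA #1 by 0.40 ± 0.11 and had -0.07 ± 0.11 with shRNA #2. COX4I1, the regulatory subunit that binds adenine nucleotides, had -0.15 ± 0.12 with shRNA #1 and -0.32 ± 0.11 with shRNA #2. COX4I1 passed with shRNA #2 (adjusted p = 0.0252, limma), a call lost without NS shRNA replicate 1, NS shRNA replicate 2, shRNA #2 replicate 1 or shRNA #2 replicate 2 (adjusted p = 0.113, 0.0885, 0.0763 and 0.0813, limma). Without NS shRNA replicate 3 it was called with shRNA #1 too (adjusted p = 0.019, limma).

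COX7C, a small membrane subunit (chromosome 5, 86617928 to 86620962), was the member of complex IV that rose. It had 3122, 2800 and 2552 normalized counts with NS shRNA and 3497, 3558 and 4138 with shRNA #1, and 3369, 3039 and 2751 against 4450, 4757 and 5593 with shRNA #2. All hairpin libraries exceeded all controls. COX7C rose by 0.40 ± 0.09 and 0.69 ± 0.09 (adjusted p = 0.00244 and 8.54e-05, limma).

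The tissue-restricted second forms of complex IV subunits were near or at 0. COX4I2 and COX7A1, of lung and muscle, had 0 reads in all 9 libraries, which allows up to 3 reads in each by counting error alone, and COX6A2 had 1 read in 1 library. COX8C had 0 to 3 reads and COX7B2 0 to 4. COX6B2, best known from testis, had 0, 2 and 2 reads with NS shRNA, 12, 9 and 9 with shRNA #1, and 3, 3 and 3 with shRNA #2. The shRNA #1 libraries thus held the most reads, but the gene was below the filter and was not tested.

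Complex V, ATP synthase, had 15 of 16 genes above the filter, the copy ATP5L2 being below it. Of these, 6 (40.0%) fell with each hairpin, against 33.3% and 33.4% of all genes, 0 rose with shRNA #1 and 1 rose with shRNA #2, against 32.8% and 33.5% (ATP5O, the stalk subunit, by 0.20 ± 0.08). ATP5A1, the alpha subunit of the catalytic head (chromosome 18, 46080248 to 46104334, now ATP5F1A), was among the genes with the most reads. It had 25764, 26427 and 23489 normalized counts with NS shRNA and 16835, 17587 and 18595 with shRNA #1, and 27800, 28686 and 25326 against 20236, 18425 and 20647 with shRNA #2. Its groups were well apart in both tables. ATP5A1 fell by 0.51 ± 0.06 and by 0.46 ± 0.06 (adjusted p = 3.97e-05 and 9.25e-05, limma).

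The beta subunit ATP5B, which pairs with alpha in the head, had -0.12 ± 0.05 (adjusted p = 0.0419, limma) and -0.09 ± 0.05 (adjusted p = 0.134, limma), and the first call was lost without NS shRNA replicate 1, NS shRNA replicate 2, shRNA #1 replicate 1 or shRNA #1 replicate 2 (adjusted p = 0.12, 0.0798, 0.139 and 0.117, limma). The gamma subunit ATP5C1 (-0.27 and -0.29) and the stalk subunit ATP5F1 (-0.22 and -0.20) fell with both hairpins, and the delta subunit ATP5D had 0.02 ± 0.11 and 0.12 ± 0.13, the second of which was called without shRNA #2 replicate 2 (0.27, adjusted p = 0.0467, limma). The epsilon subunit ATP5E had only 6 to 43 reads in any library, and its log2 fold changes of -0.15 ± 0.51 and 0.44 ± 0.38 say little at so few reads. Its pseudogene ATP5EP2 had 3 to 18 reads. The listed read-through gene SLMO2-ATP5E overlaps ATP5E, as ATP5J2-PTCD1 overlaps ATP5J2 and NDUFC2-KCTD14 overlaps NDUFC2. The 3 read-through genes had 0 reads in all libraries, and reads in shared exons may not have been counted, so the levels of ATP5E, ATP5J2 and NDUFC2 are uncertain.

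ATP5J2, a membrane subunit of complex V (chromosome 7, 99448475 to 99466186, now ATP5MF), had 2610, 2371 and 2969 normalized counts with NS shRNA and 2484, 2106 and 1831 with shRNA #1. With shRNA #2 it had 1237, 1775 and 1025 against 2816, 2574 and 3201. The groups overlapped with shRNA #1 and were apart with shRNA #2, where the hairpin libraries also spread widely. ATP5J2 fell by 0.31 ± 0.11 (adjusted p = 0.0329, limma) and by 1.12 ± 0.16 (adjusted p = 0.000142, limma). The call with shRNA #1 was lost without NS shRNA replicate 1, NS shRNA replicate 3, shRNA #1 replicate 2 or shRNA #1 replicate 3 (adjusted p = 0.0727, 0.0762, 0.0833 and 0.0884, limma).

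The 3 genes for subunit c of the rotor encode the same mature protein, and 1 of them was called. ATP5G3 had 10423, 9938 and 8449 normalized counts with NS shRNA and 5560, 5822 and 6364 with shRNA #1, and 11247, 10788 and 9110 against 8037, 7797 and 9266 with shRNA #2. The shRNA #1 libraries were all lower, and with shRNA #2 replicate 3 overlapped the lowest control. ATP5G3 fell by 0.70 ± 0.08 and by 0.31 ± 0.09 (adjusted p = 5.07e-05 and 0.00973, limma). ATP5G1 (-0.08 ± 0.07 and -0.16 ± 0.08) and ATP5G2 (-0.01 ± 0.07 and -0.12 ± 0.09) passed in neither comparison, and whether the 3 genes differ from one another was not tested.

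Of the genes matched by name that encode no subunit, ATP5S, a coupling factor, rose with shRNA #1 by 0.48 ± 0.12 and had 0.21 ± 0.14 with shRNA #2. ATP5SL, a complex I assembly factor despite its name, had -0.02 ± 0.07 and -0.01 ± 0.07. The pseudogenes ATP5EP2 and UQCRBP1 were below the filter.

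Levels of different genes were compared per length, as reads scaled to the length of the canonical transcript and the depth of the library (RPKM), in the NS shRNA libraries. The median was 158 over the 12 complex IV genes tested, 139 over 14 of complex V, 92.1 over complex II, 90.3 over complex I and 70.6 over complex III. COX8A had the highest level at 476 ± 40.9 (SD, n = 3), followed by COX7A2 at 343 ± 22.1, ATP5B at 336 ± 13.3 and COX6B1 at 286 ± 24.3. COX7A2 and ATP5B differed by less than their spread. Genes with a long canonical transcript, such as NDUFV3 at 5725 bases, are placed low by this measure if the cells use a shorter one.

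The hairpins were then compared with each other by edgeR on the reads recovered from the tables. Of the 79 genes, 34 differed, against 63.9% of the 14381 genes tested. In shRNA #2 cells 17 (21.5%) were higher and 17 (21.5%) lower than in shRNA #1 cells, against 31.4% and 32.5% of all genes. The count that was higher went to 10 without shRNA #1 replicate 1 or without shRNA #1 replicate 2, and to 9 without shRNA #2 replicate 3. Of all genes, 4511 were higher in the main fit, and 3992 to 4633 with any 1 library left out. UQCRC2 was lower with shRNA #2, at a log2 ratio of -0.69 ± 0.06 (adjusted p = 2.94e-06, edgeR), as were ATP5J2 (-0.79 ± 0.17) and NDUFA3, an accessory subunit of complex I (-0.63 ± 0.10). NDUFA3 had -0.24 ± 0.10 with shRNA #1 and fell by 0.86 ± 0.10 with shRNA #2 (adjusted p = 0.0536 and 2.85e-05, limma). With shRNA #1 it was called on all libraries by edgeR (adjusted p = 0.0464) and by DESeq2 (adjusted p = 0.0485). By limma it was called there without NS shRNA replicate 3 (adjusted p = 0.00374, limma) or shRNA #1 replicate 3 (adjusted p = 0.0336, limma). NDUFS3 (0.47 ± 0.10) and SDHA (0.36 ± 0.07) were higher with shRNA #2 than with shRNA #1.

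COX6C, a small subunit of complex IV, had the largest ratio above 0. It had 4982, 5075 and 3728 normalized counts with NS shRNA and 2979, 3427 and 4096 with shRNA #1, and 5375, 5509 and 4020 against 5275, 4575 and 7166 with shRNA #2. Both pairs of groups overlapped. COX6C fell with shRNA #1 by 0.39 ± 0.13 (adjusted p = 0.0276, limma), a call lost without any 1 of NS shRNA replicates 1 and 2 and shRNA #1 replicates 1 and 2 (adjusted p = 0.0725 to 0.115, limma), and had 0.18 ± 0.16 with shRNA #2. The replicate 3 libraries stood apart in each group. On the log2 scale COX6C was higher by 0.57 ± 0.17 with shRNA #2 than with shRNA #1 (adjusted p = 0.0119, edgeR), and without shRNA #2 replicate 3 the ratio was 0.37 (adjusted p = 0.0509, edgeR). NDUFB11, of the complex I membrane arm, had a ratio of 0.42 ± 0.17 (adjusted p = 0.0455, edgeR). Against NS shRNA it had -0.26 ± 0.15 with shRNA #1, which was called without NS shRNA replicate 3 (adjusted p = 0.00661, limma) or shRNA #1 replicate 3 (adjusted p = 0.0228, limma), and 0.18 ± 0.15 with shRNA #2. The call between the hairpins was lost without any 1 of NS shRNA replicates 1 and 2, shRNA #1 replicates 1 and 2 and shRNA #2 replicates 1 and 3 (adjusted p = 0.0537 to 0.183, edgeR).

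Assembly factors are not part of the finished complexes. Over the 51 tested assembly factors of complexes I to V, 12 rose and 14 fell with shRNA #1 and 13 rose and 18 fell with shRNA #2, with medians of -0.08 and 0.01. The shares that rose (23.5% and 25.5%) and fell (27.5% and 35.3%) lay below or near those of all genes (32.8% and 33.5%, and 33.3% and 33.4%). NDUFAF4, an assembly factor of complex I, rose by 0.86 and 0.75 on the log2 scale, and COA7 and COX19, of complex IV, rose by 0.94 and 1.08 and by 0.75 and 0.75. LRPPRC, which stabilizes mitochondrial mRNAs, rose by 0.50 ± 0.04 and 0.98 ± 0.05. NUBPL, which delivers iron-sulphur clusters to complex I, fell by 0.47 and 0.44, and ATPAF2, an assembly factor of the ATP synthase head, by 0.42 and 0.57. UQCC3, of complex III, fell by 0.74 and 0.69, while LYRM7, which readies the Rieske protein, rose by 0.91 and 0.58.

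Of 13 regulators of mitochondrial gene expression, 8 rose and 0 fell with shRNA #1, and 7 rose and 2 fell with shRNA #2 (medians 0.22 and 0.28). The shares that rose were 61.5% and 53.8%, against 32.8% and 33.5% of all genes, and those that fell 0% and 15.4%, against 33.3% and 33.4%. PPRC1, a coactivator, rose by 1.10 ± 0.05 and 0.38 ± 0.07, ESRRA, a nuclear receptor, by 0.42 ± 0.07 and 0.90 ± 0.09, and YY1 by 0.29 ± 0.05 and 0.92 ± 0.06. NRF1, nuclear respiratory factor 1, had -0.04 ± 0.07 and -0.01 ± 0.08 and passed in neither comparison. PPARGC1A, a coactivator, had -0.14 ± 0.07 with shRNA #1 and rose by 0.66 ± 0.07 with shRNA #2. TFAM, which packages mitochondrial DNA, rose by 0.32 ± 0.05 with shRNA #1 and fell by 0.23 ± 0.05 with shRNA #2. Of the 13 subunits encoded in mitochondrial DNA, 0 were listed under their MT symbols, so they could not be analysed here.

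Among 17 enzymes of the citric acid cycle and pyruvate dehydrogenase, 8 fell with each hairpin, 1 rose with shRNA #1 and 4 rose with shRNA #2 (medians -0.09 and -0.06). The share that fell was 47.1% with each hairpin, against 33.3% and 33.4% of all genes, and the shares that rose were 5.88% and 23.5%, against 32.8% and 33.5%. IDH2, the mitochondrial isocitrate dehydrogenase that makes NADPH, fell by 0.97 ± 0.11 and by 1.26 ± 0.12, SUCLG2 by 0.34 and 1.07 and IDH3G by 0.56 and 0.71. Of 13 genes of coenzyme Q synthesis, 5 fell and 2 rose with shRNA #1 and 10 fell and 1 rose with shRNA #2 (medians -0.16 and -0.46). The share that fell was 38.5% with shRNA #1, close to the 33.3% of all genes, and 76.9% with shRNA #2, against 33.4%, and the shares that rose were 15.4% and 7.69%, against 32.8% and 33.5%. COQ2, the prenyltransferase of the pathway, fell by 0.73 ± 0.07 and by 1.02 ± 0.07. Of 12 genes of the outer membrane and protein import, 5 rose and 3 fell with shRNA #1 and 8 rose and 3 fell with shRNA #2 (medians 0.14 and 0.25). The shares that rose were 41.7% and 66.7%, against 32.8% and 33.5% of all genes, and 25% fell with each, against 33.3% and 33.4%. HSPA9, the matrix chaperone of import, rose by 0.90 ± 0.04 and 1.08 ± 0.05, and VDAC1, the outer membrane channel, fell by 0.41 ± 0.04 and by 0.37 ± 0.05.

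A list outside the name pattern had 5 tested genes, which carry electrons, belong to the complexes or, for ATPIF1, inhibit ATP synthase. With shRNA #1, 2 rose and 2 fell (40% each), against 32.8% and 33.3% of all genes. With shRNA #2, 2 (40%) rose and 1 (20%) fell, against 33.5% and 33.4%. CYCS and ATPIF1 rose with both hairpins. Leaving out replicate 2 or 3 of NS shRNA or of shRNA #1 lost the ATPIF1 call with shRNA #1 (adjusted p = 0.0808 to 0.129, limma). CYCS, cytochrome c, rose by 0.53 ± 0.05 and 0.84 ± 0.06 (adjusted p = 8.67e-06 and 7.98e-07, limma). NDUFAB1, the acyl carrier protein in complex I, had -0.20 ± 0.09 and -0.21 ± 0.10 and passed in neither comparison. It was called with shRNA #1 without NS shRNA replicate 3 or shRNA #1 replicate 3 (adjusted p = 0.00434 and 0.0253, limma), and with shRNA #2 without NS shRNA replicate 3 or shRNA #2 replicate 3 (adjusted p = 0.0147 and 0.0114, limma). USMG5, a membrane subunit of ATP synthase, fell by 0.28 ± 0.08 and by 0.73 ± 0.08, and its call with shRNA #1 was lost without NS shRNA replicate 1, NS shRNA replicate 2 or shRNA #1 replicate 2 (adjusted p = 0.0539 to 0.0605, limma).

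**Figure D5:**
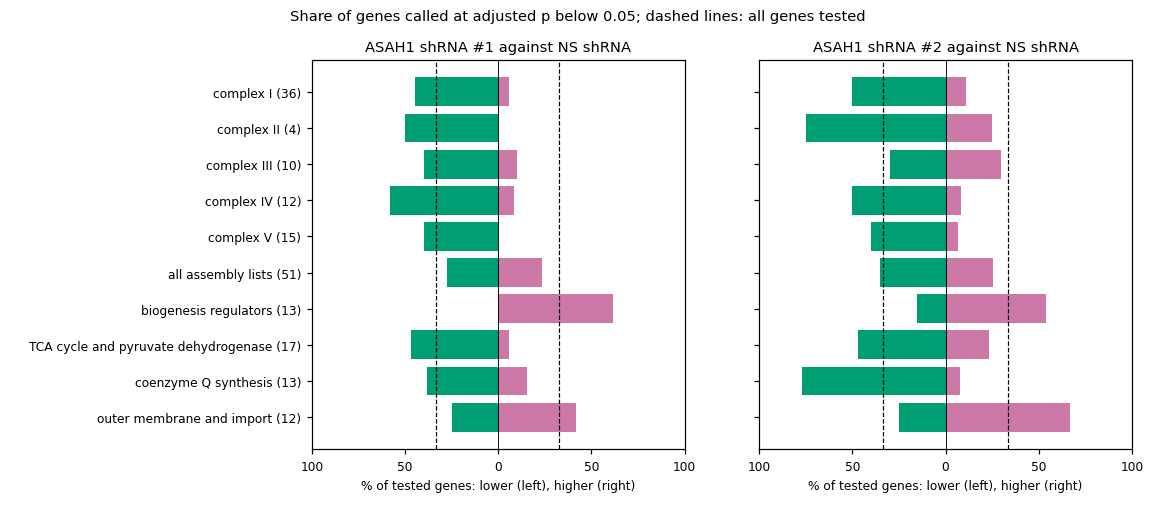
Share of the tested genes of each complex and of each neighbouring list (number tested in brackets) called lower (left, green) or higher (right, pink) at an adjusted p below 0.05, for each hairpin; the dashed lines give the shares of all genes tested. The called-lower share is above the line of all genes in all 5 complexes with shRNA #1 and in 4 of the 5 with shRNA #2, where complex III lies below it at 30.0%.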

How the data were processed

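RNA of 9 MDA-MB-231 libraries (3 groups of 3) was sequenced as single-end reads. The extraction protocol names oligo-dT beads and the series design names ribosomal RNA depletion, and which was used was not settled. For the deposited tables the authors used Trimmomatic 0.36, STAR 2.7.1a with hg38, htseq-count with UCSC gene models and the reverse strand setting, and DESeq2 1.28 in one run per hairpin. Another methods paragraph names Bowtie2, RSEM, TMM and edgeR. The values the authors deposited are a normalized signal (reads divided by 1 size factor per library) and its mean. The columns of the authors' own comparison (log2 fold changes and errors, a Wald score, p-values), from the same DESeq2 runs, were not used. 0 per-sample columns were unmatched. 28 symbols turned into dates in one table were read from the other.

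All values up to 1000 reads came out whole within 0.01 (100%), so reads were recovered. NS shRNA reads were the same in both tables.

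Each hairpin was compared with NS shRNA by limma 3.58.1 with a trend on log2(value + 1), for genes with a mean of at least 10. The hairpins were compared by edgeR 4.0.16 (TMM, quasi-likelihood) on the reads of all 9 libraries. The fits ran in R 4.3.3, used Benjamini-Hochberg adjustment over all genes at 0.05, and were tested on simulated data. A count of 0 was read as allowing up to 3 reads. Positions and lengths came from GENCODE 44, where all 88 genes matched, and promoters from RefSeq.

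Named genes were the core subunits, up to 2 per complex and direction called with both hairpins, the largest differences between hairpins, the second isoforms, up to 3 per list called with both hairpins, and PPARGC1A, NRF1, TFAM, CYCS and NDUFAB1. Others named for context were chosen after their values were seen. Some genes are counted but not reported by name here. The genes and lists were chosen with earlier results of these data known.

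Alternatives were other pseudocounts (0.1 and 5), filters (0 and 50), normalizations, tools (DESeq2 1.42.0), a block for the replicate numbers, leaving out each library in turn and, added later, all replicate 3 libraries left out.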

Additional observations from a re-analysis of the deposited data

Results flagged for a closer look

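For 9 subunit genes the log2 fold changes against NS shRNA had opposite signs with the 2 hairpins and the hairpins differed by edgeR. The share of all genes that met both conditions is not given here, and 63.9% of all genes differed between the hairpins. On the log2 scale the ratio between the hairpins (shRNA #2 over #1) was above 0 for COX6C (0.57, adjusted p = 0.0119, edgeR), NDUFB11 (0.42, adjusted p = 0.0455, edgeR), UQCR11 (0.40, adjusted p = 0.0187, edgeR), NDUFA5 (0.31, adjusted p = 0.000222, edgeR) and NDUFS5 (0.20, adjusted p = 0.0494, edgeR). It was below 0 for ATP5J (-0.33, adjusted p = 0.00896, edgeR), NDUFV2 (-0.30, adjusted p = 0.000771, edgeR), SDHC (-0.26, adjusted p = 0.00355, edgeR) and COX7A2L (-0.26, adjusted p = 0.0051, edgeR). In none of the 9 were both changes against NS shRNA called by limma. For NDUFS5 and SDHC the sign with shRNA #1 rests on values near 0 (-0.0069 and 0.0073).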

How the results depend on the processing

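With either hairpin more genes fell than rose in every setting run. Counts that fell were 30 to 45 (shRNA #1) and 31 to 44 (shRNA #2) when 1 library was left out. Of all genes, 4291 to 4754 and 4276 to 4617 fell in those settings. Genes that rose with shRNA #2 numbered 10, and 6 to 12 with 1 library left out. Of all genes, 4780 rose with shRNA #2, and 4270 to 4714 with 1 library left out. Genes higher with shRNA #2 than with shRNA #1 numbered 17, 9 to 21 with 1 library left out and 11 with upper quartile scaling. Of all genes, 4511 were higher, and 3992 to 4633 with 1 library left out. Upper quartile scaling moved the median ratio of the 79 genes between the hairpins from 0.02 to -0.057 and that of all genes to -0.08. edgeR kept 40 of 40 calls with shRNA #1 and 46 of 46 with shRNA #2, and DESeq2 39 and 45.

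With all replicate 3 libraries left out (chosen after seeing the data), 56 genes fell with shRNA #1 (median -0.32), and with shRNA #2 6 rose (median -0.29). The signs turned of SDHB (-0.11), ATP5D (-0.18, adjusted p = 0.00562, limma) and NRF1 (0.046) with shRNA #1, of CYC1 (-0.11), ATP5D (-0.12), COX6C (-0.15) and NDUFB11 (-0.13) with shRNA #2, and of NDUFA6 (0.022) between the hairpins. The causes were not tested.

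The other values that turned sign were without a call there. CYC1 with shRNA #2 had -0.0072 after upper quartile rescaling, and NDUFA6 between the hairpins 0.0041 with no filter. With 1 library left out, the log2 fold changes with shRNA #1 spanned -0.031 to 0.033 (NDUFS1), -0.14 to 0.014 (NDUFS8), -0.059 to 0.072 (SDHB), -0.033 to 0.059 (SDHC), -0.14 to 0.010 (CYC1), -0.079 to 0.098 (ATP5D), -0.60 to 0.35 (ATP5E), -0.081 to 0.014 (NRF1) and -0.087 to 0.028 (ATP5SL). With shRNA #2 they spanned -0.088 to 0.081 (NDUFS8), -0.040 to 0.11 (CYC1), -0.18 to 0.026 (COX5B), -0.011 to 0.27 (ATP5D, called at 0.27), -0.0019 to 0.32 (COX6C), -0.046 to 0.052 (NRF1) and -0.077 to 0.034 (ATP5SL). Between the hairpins NDUFA6 spanned -0.050 to 0.060.

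Not every pair of same-numbered libraries correlated above 0.1, so the replicate numbers were not taken to pair the samples. Deviations of same-numbered libraries correlated at -0.59 to -0.14 between NS shRNA and a hairpin, and at 0.0314, 0.184 and 0.470 between the hairpins. With the replicate number as a block, 4 rose and 30 fell with shRNA #1, 7 and 34 with shRNA #2, and 13 were higher and 17 lower between the hairpins. Over the alternatives other than leaving out 1 library, the block included, 4120 to 4978 of all genes rose and 4117 to 5036 fell with shRNA #1. With shRNA #2, 4246 to 4831 rose and 4225 to 5152 fell. Between the hairpins, 3741 to 4677 were higher and 4119 to 5475 lower.

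Low counts limit ATP5E, UQCRHL and the tissue-restricted isoforms, which had at most 43 reads in a library. With 3 libraries per group, an exact permutation test could not go below p = 0.1.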
